A study of Mus musculus with 24 samples.

Results

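The genes described here build and move the actin ring, the adhesive belt of podosomes with which an osteoclast seals off bone. They were chosen by name as 41 symbols: the kinase Src and its partners, the adhesion plaque, actins and their crosslinkers, the Arp2/3 complex, its activators, proteins that cut, cap or lengthen filaments, the signalling genes Rhoa, Rhou, Rac1 and Cdc42, and a scaffold with unconventional myosins. Each symbol matched 1 row of the deposited count table, so the members were 41 of 54532 rows, and all 41 passed the filter on low counts that left 15035 rows for testing.

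The RNA came from macrophages grown out of mouse bone marrow, seeded at 15000 cells per well and kept for 3 or 5 days. The medium held macrophage colony-stimulating factor (M-CSF) alone, at a dose not given in the sources used here, or 30 ng/mL M-CSF with 50 ng/mL RANKL, which turns macrophages into osteoclasts. Control cells carried Rosa26-Runx1tg/+, that is, a Runx1 transgene placed at Rosa26, and no Cre. The other cells carried LysM-Cre;Rosa26-Runx1tg/+, in which Cre is driven from the lysozyme gene of myeloid cells, and are labelled Runx1 over expression; both genotypes thus carry the transgene, and the controls differ in lacking Cre. The 24 libraries form 8 groups of 3 by genotype, medium and day, and the age and sex of the mice are not given. Within a group the libraries are numbered 1 to 3. The labels do not tie these numbers to animals, cultures or days, so the p-values measure only the spread between these samples, which may be technical.

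Podosomes are short columns of branched actin on the underside of a cell. The Arp2/3 complex, switched on by WASP-family proteins and held by cortactin, builds the core, and integrins, talin, vinculin and paxillin surround it. In osteoclasts the podosomes gather into a ring at the cell edge, and Src, which phosphorylates adhesion and actin proteins, is needed for that ring and for resorption.

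Among members that rose in all 4 RANKL comparisons, 3 had a CArG box, the site of serum response factor, a known activator of actin and adhesion genes, in the window from 250 bases before to 50 after the RefSeq start (GRCm38.p6). RefSeq windows were matched for 33 of the 41 members, 42 windows in all. None was matched for Ptk2b, Dock5, Pxn, Actb, Svil, Cttn, Rac1 and Sh3pxd2a, so these were not searched. Of these, Dock5, Pxn, Cttn and Sh3pxd2a also rose in all 4 comparisons, and Ptk2b, Actb, Svil and Rac1 did not. Src, Cblb, Actn1, Actn4, Actr3, Scin, Vasp, Rhou and Myo10 also rose in all 4, and their matched windows held no CArG box. A CArG box stood in 3 of these 42 (7.14%) and in 535 of all 32851 windows (1.63%). The 3 windows are shown, chosen after the matches were seen, because Vcl, Actg1 and Myo1e rose in all 4 comparisons; the 250 bases before each start run 5′ to 3′ on the strand of the gene, with the CArG box in capitals.
Actg1 promoter, chr11:120348496-120348745, minus strand: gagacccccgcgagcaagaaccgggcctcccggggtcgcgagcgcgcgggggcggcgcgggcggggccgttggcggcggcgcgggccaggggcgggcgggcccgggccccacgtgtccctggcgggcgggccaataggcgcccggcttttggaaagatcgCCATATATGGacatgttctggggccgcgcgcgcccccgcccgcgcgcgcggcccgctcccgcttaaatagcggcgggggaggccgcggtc
Myo1e promoter, chr9:70207100-70207349, plus strand: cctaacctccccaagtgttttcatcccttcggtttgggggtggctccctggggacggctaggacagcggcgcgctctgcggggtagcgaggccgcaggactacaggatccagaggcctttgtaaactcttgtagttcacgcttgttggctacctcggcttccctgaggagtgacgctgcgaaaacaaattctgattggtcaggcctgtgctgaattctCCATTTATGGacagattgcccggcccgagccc
Vcl promoter, chr14:20929148-20929397, plus strand: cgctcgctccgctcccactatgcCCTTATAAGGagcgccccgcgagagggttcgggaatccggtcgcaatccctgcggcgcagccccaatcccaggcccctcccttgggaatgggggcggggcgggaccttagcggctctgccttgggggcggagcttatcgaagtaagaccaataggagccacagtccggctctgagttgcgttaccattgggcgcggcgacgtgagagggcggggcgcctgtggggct
The box begins 90 bases before the start in Actg1, 32 in Myo1e and 227 in Vcl. The Myo1e and Actg1 boxes lie close to the start, and that of Vcl near the far end of the window. For other motifs, searched on both strands, shares of the member windows are given against those of all windows. The NFAT core GGAAA stood in 52.4% against 61.3%, the AP-1 site TGANTCA in 7.14% against 7.81% (Actn4, Hcls1 and Vav3), the Runx site TGTGGT in 14.3% against 16.8%, and the E-box CACGTG in 4.76% against 7.15%. The sites TCACGTGA and TCATGTGA of MiT factors, of which the first contains the E-box, stood in 4.76% against 1.94% (Actn1 and Arpc5). A match is a description of the letters and not a site in use.

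Library totals ran from 18975750 to 36523995 counts, and a single read was worth 0.0286 to 0.0542 CPM (counts scaled by the TMM-adjusted library size). Runx1 stood at 50.6 to 115 CPM in the control libraries and at 52.7 to 110 CPM in the LysM-Cre libraries, and was not called between genotypes in any condition. The 10 osteoclast markers summed to 36200 to 59900 CPM over the groups with RANKL and to 111 to 175 CPM over those with M-CSF alone, and macrophage markers to 5150 to 9170 CPM and 19300 to 36100 CPM. The 4 LysM-Cre libraries of number 3 held 542 to 847 counts each from Y-linked genes and 2 to 12 from Xist, against 0 to 1 and 14963 to 28379 in the other 20 libraries; genotype results that change without them are given with both values. Stromal markers summed to 34.6 to 306 CPM in the LysM-Cre libraries with RANKL at day 5 and to 7.9 to 142 CPM in the other groups.

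With RANKL at day 3 in control cells, 19 members rose and 13 fell at an adjusted p under 0.05, against 29.5% of all tested genes higher and 29.7% lower. In bulk RNA, fewer cells of a type and less RNA per cell cannot be told apart. At day 5 the counts were 16 higher and 18 lower, against 26.4% and 23.1% of all tested genes. In LysM-Cre cells 20 rose and 15 fell at day 3, against 29.1% and 30.1%, and 16 rose and 17 fell at day 5, against 27.5% and 24.9%. The shares of members called higher were 46.3% at day 3 and 39% at day 5 in control cells. The median log2 change of the members was 0.23 at day 3 and -0.06 at day 5 in control cells, and 0.24 and -0.06 in LysM-Cre cells, with medians of all tested genes between -0.03 and 0.03. In all 4 comparisons 16 members rose (Src, Cblb, Dock5, Pxn, Vcl, Actg1, Actn1, Actn4, Actr3, Cttn, Scin, Vasp, Rhou, Sh3pxd2a, Myo1e and Myo10) and 12 fell (Cbl, Vav3, Svil, Arpc1b, Arpc3, Arpc5, Was, Hcls1, Rhoa, Rac1, Cdc42 and Myo9b). The share of all tested genes called in the same direction in all 4 was not computed, so these counts have no background beside them. Scaled by the TMM method and fitted over all 24 libraries, edgeR called Lcp1, Tpm4, Actr2 and Pfn1 in none of the 4 comparisons. Lcp1 and Pfn1 were called higher at day 3 in control cells by edgeR with RLE size factors and by DESeq2, and Tpm4 was called at day 5 in both genotypes when only the groups compared were fitted. Mitochondrial transcripts took 1.52% to 2.42% of the counts in the libraries in M-CSF alone and 3.15% to 4.57% with RANKL, and their part in these changes was not tested.

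**Figure D1:**
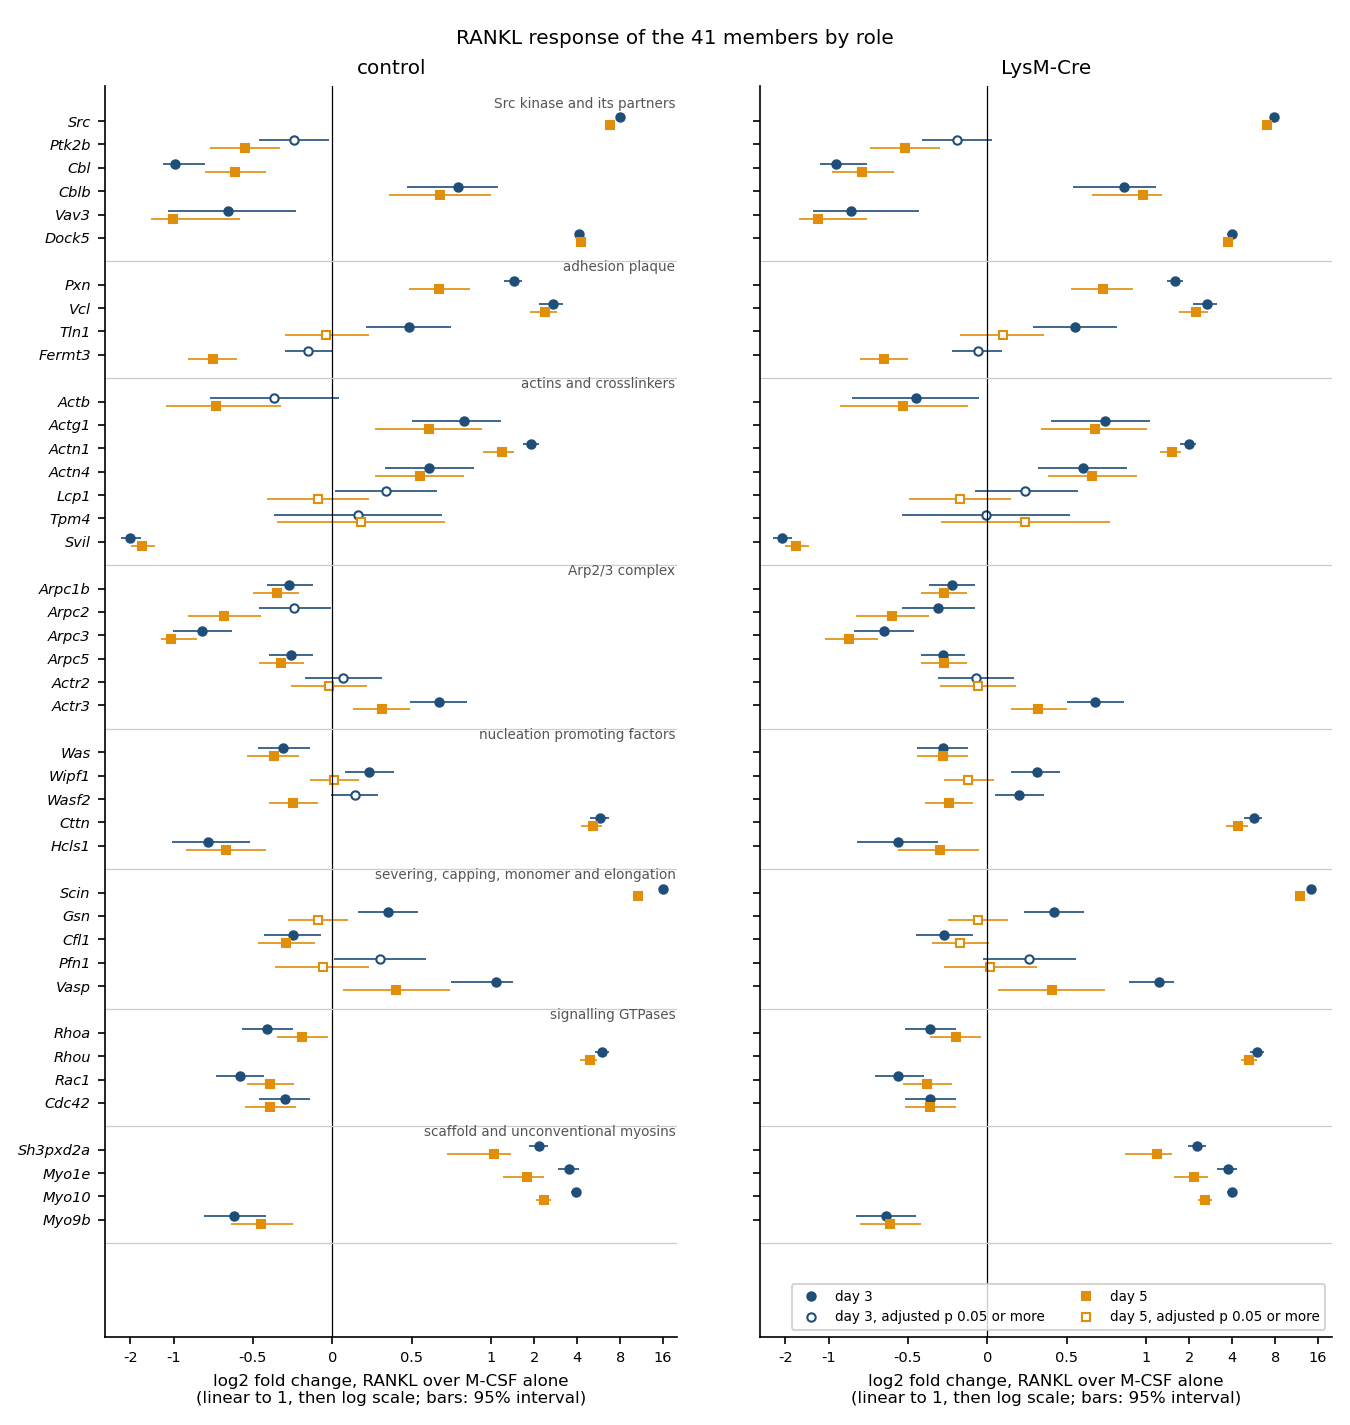
Fitted log2 fold change of RANKL over M-CSF alone for the 41 members, grouped by role, in control (left) and LysM-Cre cells (right) at day 3 (blue circles) and day 5 (orange squares), with 95% intervals; the x axis is linear to 1 and logarithmic beyond, and open symbols have an adjusted p of 0.05 or more. Scin, Src, Rhou and Cttn lie far to the right, Svil lies farthest to the left, and most members of the Arp2/3 complex lie between -1.04 and 0.

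Per length, the members covered a wide range of levels. In control cells in M-CSF alone at day 3, Actb was the highest member at 2240 RPKM (CPM per kilobase of gene length), followed by Cfl1 at 713, Actg1 at 485, Arpc2 at 390 and Pfn1 at 351 RPKM. The lowest were Myo10 at 2.95, Cttn at 0.59, Src at 0.526 and Rhou at 0.237 RPKM, with Scin at 0 counts. With RANKL at day 3, Actb was still highest at 1730 RPKM, Actg1 was next at 865 RPKM, and Svil was lowest at 1.96 RPKM. Src was then at 136 RPKM and Myo1e at 142 RPKM, ranks 17 and 15 of 41. In control cells at day 3, all members together took 2.53% ± 0.452 (SD, n = 3) of the counts in M-CSF alone. With RANKL they took 2.83% ± 0.243, and the ranges overlapped. At day 5 the shares were 3.04% ± 0.143 in M-CSF alone and 2.83% ± 0.0459 with RANKL. In LysM-Cre cells they were 2.63% ± 0.382 and 2.86% ± 0.134 at day 3, and 2.89% ± 0.103 and 2.81% ± 0.08 at day 5.

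Among Src and its partners, Src and Dock5 rose with RANKL, Cblb rose less, and Cbl and Vav3 fell. Src (chr2:157418444-157471862, GRCm38, as are the other positions) encodes the founding member of its kinase family. In M-CSF alone, Src held 3.08, 1.68 and 2.14 CPM in control cells at day 3 and 3.04, 2.55 and 2.83 at day 5. LysM-Cre cells held 1.65, 3.34 and 2.81 CPM at day 3 and 1.6, 3.28 and 1.98 at day 5. With RANKL, the same gene held 609, 617 and 561 CPM in control cells at day 3 and 300, 314 and 349 at day 5. LysM-Cre cells held 661, 593 and 591 CPM at day 3 and 315, 236 and 348 at day 5. All 12 libraries with RANKL lay far above all 12 with M-CSF alone, and every day 3 library with RANKL lay above every day 5 library with RANKL. The log2 fold changes of Src were 8.02 (SE 0.265) at day 3 and 6.83 (SE 0.254) at day 5 in control cells, and 7.88 (SE 0.262) and 7.02 (SE 0.256) in LysM-Cre cells, the largest adjusted p being 3.66e-14. These correspond to 259-fold at day 3 and 114-fold at day 5 in control cells.

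Dock5, on the minus strand of chr14:67752135-67933442, encodes an exchange factor that activates Rac and is used by osteoclasts to form the ring. Dock5 in M-CSF alone read 38.3, 43.3 and 46.2 CPM in control cells at day 3 and 26.1, 26.8 and 21.1 at day 5. LysM-Cre cells held 53, 50.2 and 49 CPM at day 3 and 35.8, 39.1 and 25.9 at day 5. With RANKL its values were 741, 788 and 723 CPM in control cells at day 3 and 460, 493 and 447 at day 5. LysM-Cre cells held 842, 781 and 771 CPM at day 3 and 438, 408 and 486 at day 5. The media did not overlap, and within each medium and genotype the day 5 values lay below the day 3 values. The Dock5 log2 fold changes were 4.14 (SE 0.134) at day 3 and 4.24 (SE 0.135) at day 5 in control cells, and 3.97 (SE 0.132) and 3.72 (SE 0.131) in LysM-Cre cells, with adjusted p of 1.36e-14 or less. The other partners changed less. Cblb, a ubiquitin ligase that acts on active receptors and kinases, rose, with log2 changes of 0.79 (SE 0.153) at day 3 and 0.68 (SE 0.153) at day 5 in control cells, and 0.86 (SE 0.153) and 0.98 (SE 0.154) in LysM-Cre cells. Its relative Cbl, which binds Src and Pyk2 in osteoclasts, fell from 339 ± 29.3 to 170 ± 7.61 CPM (SD, n = 3) at day 3 in control cells, and its log2 changes were -0.99 (SE 0.0929) at day 3 and -0.61 (SE 0.0924) at day 5 in control cells, and -0.95 (SE 0.0929) and -0.79 (SE 0.0926) in LysM-Cre cells. Vav3, another exchange factor, had log2 changes of -0.66 (SE 0.204) at day 3 and -1.01 (SE 0.205) at day 5 in control cells, and -0.86 (SE 0.204) and -1.19 (SE 0.205) in LysM-Cre cells. The day 3 call of Vav3 in control cells, where the media overlapped, was lost without number 1 of the RANKL libraries or number 3 of the M-CSF libraries (adjusted p up to 0.0652). Ptk2b, the gene of the adhesion kinase Pyk2, fell at day 5, to 217 ± 9.4 from 317 ± 26.7 CPM in control cells (log2 -0.55, adjusted p = 0.000166) and to 223 ± 4.66 from 319 ± 25.9 CPM in LysM-Cre cells (log2 -0.52, adjusted p = 0.000313). At day 3 its change was -0.24 in control and -0.19 in LysM-Cre cells (adjusted p = 0.0538 and 0.123), and the control value passed the threshold without any of 3 libraries: numbers 1 or 2 of the M-CSF libraries or number 2 of the RANKL libraries.

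**Figure D2:**
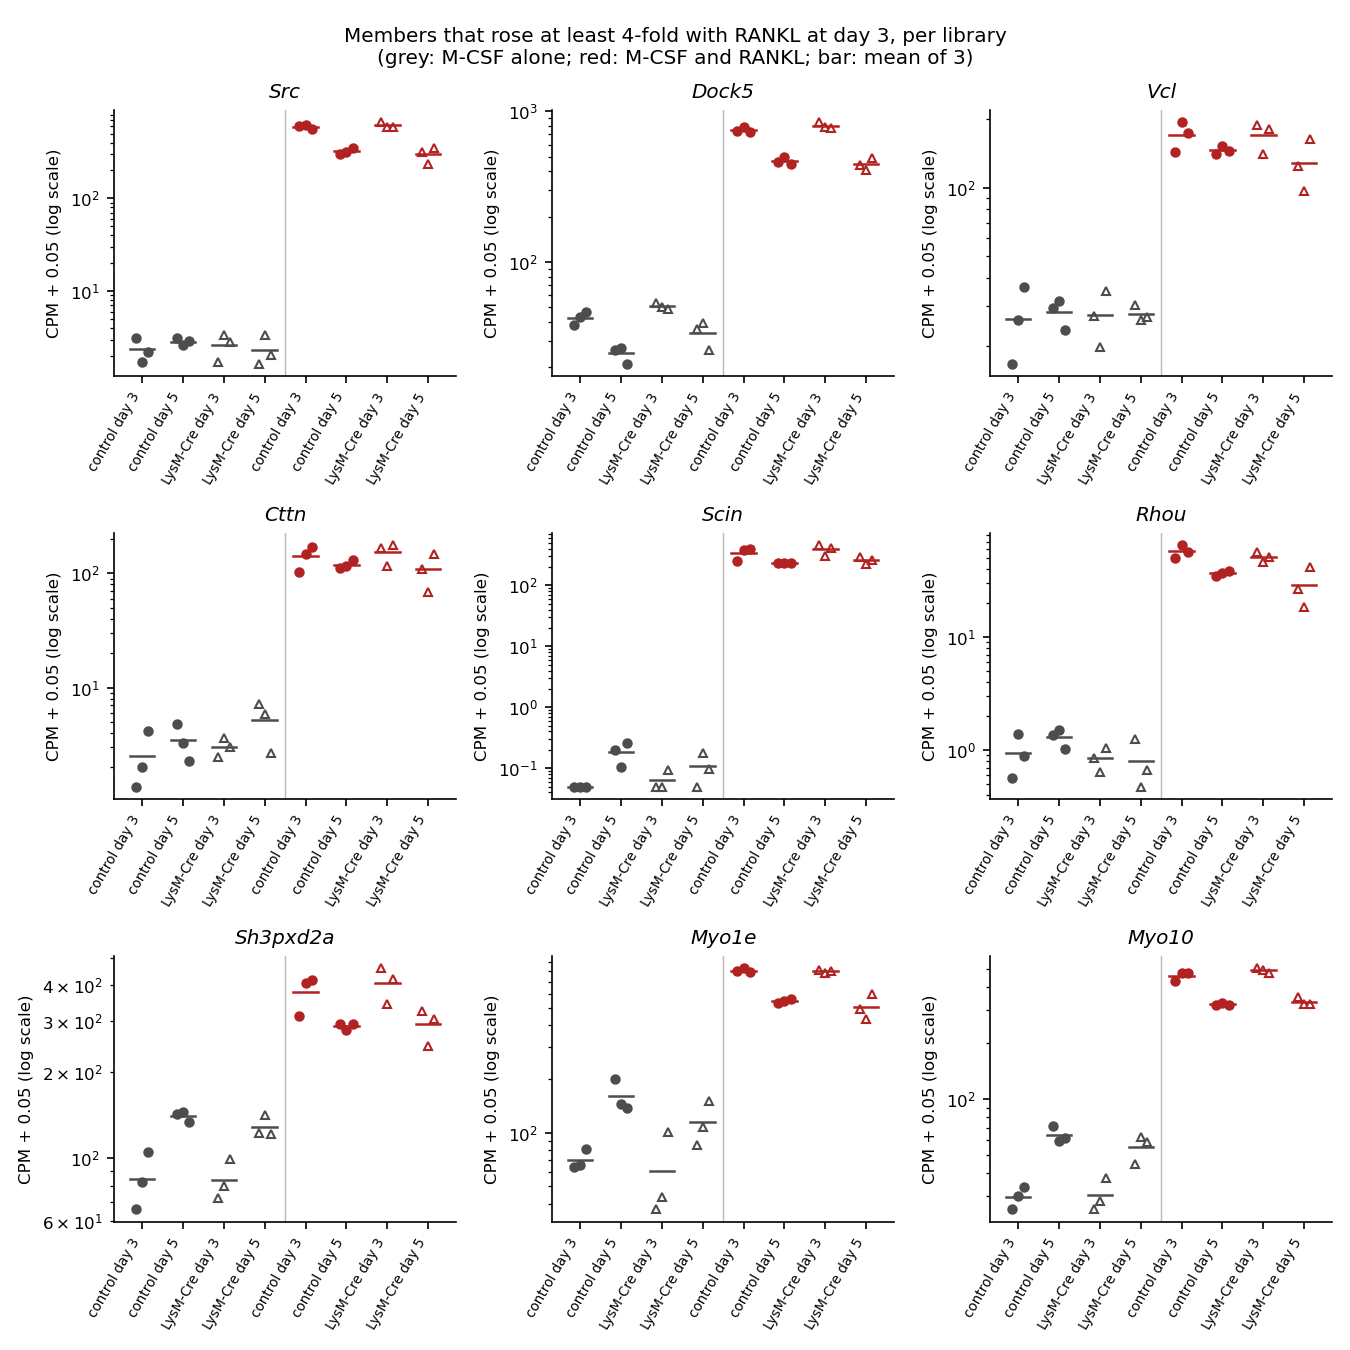
CPM plus 0.05 on a log axis for the 9 members with a fitted rise of over 4-fold with RANKL at day 3 in control cells, per library; grey is M-CSF alone, red is M-CSF and RANKL, circles are control, triangles are LysM-Cre, and bars are means of 3. In each panel all 12 red points lie above all 12 grey points, and Src with RANKL runs from 561 to 661 CPM at day 3 and from 236 to 349 CPM at day 5.

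In the adhesion plaque, the linkers between integrins and actin, Vcl and Pxn rose at both days, Tln1 rose at day 3 and Fermt3 fell at day 5. Vcl (chr14:20929398-21033676) encodes vinculin, which ties talin to actin. Vcl held 16.6, 25.8 and 36.3 CPM in control cells at day 3 and 29.4, 31.6 and 23.4 at day 5 in M-CSF alone. LysM-Cre cells held 27.1, 19.7 and 34.7 CPM at day 3 and 30.1, 25.8 and 26.7 at day 5. With RANKL it rose to 143, 194 and 174 CPM in control cells at day 3 and 141, 153 and 145 at day 5. LysM-Cre cells held 189, 141 and 182 CPM at day 3 and 124, 96.2 and 164 at day 5. The lowest RANKL library, number 2 of LysM-Cre at day 5 with 96.2 CPM, still lay above the highest M-CSF library at 36.3 CPM. The log2 changes of Vcl were 2.7 (SE 0.246) at day 3 and 2.38 (SE 0.244) at day 5 in control cells, and 2.65 (SE 0.246) and 2.22 (SE 0.242) in LysM-Cre cells, with adjusted p of 1.82e-07 or less. Of the exon bases of Vcl, 25.5% are shared with Ap3m1 on the other strand, and the strand setting of the counting is not given; Ap3m1 stood at 112 CPM in M-CSF alone and 106 CPM with RANKL at day 3 in control cells and was not called.

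Pxn, at chr5:115506676-115555987, encodes paxillin, an adaptor that Src phosphorylates. In M-CSF alone Pxn was at 223, 194 and 186 CPM in control cells at day 3 and 229, 224 and 236 at day 5. LysM-Cre cells held 162, 206 and 175 CPM at day 3 and 198, 207 and 204 at day 5. RANKL libraries gave 534, 561 and 541 CPM in control cells at day 3 and 355, 366 and 376 at day 5. LysM-Cre cells held 558, 534 and 554 CPM at day 3 and 338, 288 and 381 at day 5. The media did not overlap at either day, and with RANKL all 6 day 5 libraries lay below all 6 day 3 libraries. Its log2 changes were 1.44 (SE 0.0965) at day 3 and 0.67 (SE 0.0951) at day 5 in control cells, and 1.6 (SE 0.0969) and 0.73 (SE 0.0952) in LysM-Cre cells, and the largest adjusted p was 4.64e-06. Tln1, the talin that opens integrins, rose at day 3 by log2 0.48 in control and 0.55 in LysM-Cre cells (adjusted p = 0.00286 and 0.000844), and its day 5 changes of -0.04 and 0.1 did not pass. Fermt3 encodes kindlin-3, the integrin activator of blood cells. Fermt3 values were 473, 439 and 443 CPM in control cells at day 3 and 503, 487 and 522 at day 5 in M-CSF alone. LysM-Cre cells held 396, 464 and 458 CPM at day 3 and 475, 472 and 473 at day 5. Under RANKL they were 392, 414 and 416 CPM in control cells at day 3 and 289, 288 and 320 at day 5. LysM-Cre cells held 430, 400 and 429 CPM at day 3 and 298, 286 and 320 at day 5. Day 5 with RANKL was the lowest in both genotypes, with all 6 libraries below every other library. The fall at day 5 was log2 -0.75 in control and -0.65 in LysM-Cre cells (adjusted p = 3.16e-08 and 2.58e-07), while the day 3 values of -0.15 and -0.06 did not pass (adjusted p = 0.0871 and 0.468).

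The actins and crosslinkers split. Actg1, Actn1 and Actn4 rose in all 4 comparisons, Svil fell in all 4, and Lcp1, the plastin of blood cells, and Tpm4, a tropomyosin, were not called by edgeR with TMM scaling over all libraries. Actn1 (chr12:80167547-80260371) encodes alpha-actinin 1, which bundles filaments. Actn1 levels in M-CSF alone were 131, 147 and 169 CPM in control cells at day 3 and 233, 226 and 212 at day 5. LysM-Cre cells held 157, 134 and 168 CPM at day 3 and 169, 191 and 207 at day 5. RANKL took Actn1 to 477, 596 and 617 CPM in control cells at day 3 and 509, 518 and 516 at day 5. LysM-Cre cells held 681, 536 and 603 CPM at day 3 and 587, 498 and 533 at day 5. No RANKL library overlapped with one in M-CSF alone. The log2 changes were 1.91 (SE 0.122) at day 3 and 1.2 (SE 0.119) at day 5 in control cells, and 1.99 (SE 0.122) and 1.51 (SE 0.12) in LysM-Cre cells (adjusted p of 3.6e-08 or less). For Actn4, the alpha-actinin of most cell types, the changes were smaller at 0.61 (SE 0.135) at day 3 and 0.55 (SE 0.135) at day 5 in control cells, and 0.6 (SE 0.135) and 0.66 (SE 0.135) in LysM-Cre cells. Svil, on chromosome 18, encodes supervillin, which links actin and myosin to membranes. Svil held 79.8, 84.2 and 90.7 CPM in control cells at day 3 and 64.4, 68.3 and 67 at day 5 in M-CSF alone. LysM-Cre cells held 93.8, 81.2 and 88.6 CPM at day 3 and 76.4, 70.1 and 76.7 at day 5. It fell with RANKL to 21.1, 18 and 23.9 CPM in control cells at day 3 and 23.3, 18.6 and 20.9 at day 5. LysM-Cre cells held 17.9, 25.9 and 16.7 CPM at day 3 and 23.6, 28.2 and 18.1 at day 5. Every RANKL library lay below every M-CSF library. Its log2 changes of -2.02 (SE 0.156) at day 3 and -1.67 (SE 0.155) at day 5 in control cells, and -2.13 (SE 0.157) and -1.68 (SE 0.154) in LysM-Cre cells were the largest falls among the members in each of the 4 comparisons. The changes of Lcp1 were 0.34 (SE 0.154) at day 3 and -0.09 (SE 0.154) at day 5 in control cells, and 0.24 (SE 0.154) and -0.17 (SE 0.154) in LysM-Cre cells, and those of Tpm4 0.16 (SE 0.254) at day 3 and 0.18 (SE 0.254) at day 5 in control cells, and -0.01 (SE 0.254) and 0.24 (SE 0.254) in LysM-Cre cells. At day 3, Lcp1 passed the threshold higher in control cells with RLE size factors, by DESeq2 and without number 3 of the M-CSF libraries, and in LysM-Cre cells without number 3 of the M-CSF libraries, with log2 values of 0.07 to 0.51 over all settings tried. Tpm4 passed at day 5 in both genotypes when only the groups compared were fitted.

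Both cytoplasmic actin genes were among the most abundant members and moved in opposite directions. Actb (chr5:142903115-142906754) and Actg1 (chr11:120345690-120348542) encode beta- and gamma-actin, which differ in few residues. In M-CSF alone, Actb held 4010, 6130 and 7830 CPM in control cells at day 3 and 10600, 8880 and 9480 at day 5. LysM-Cre cells held 6750, 4580 and 8010 CPM at day 3 and 8080, 9080 and 8880 at day 5. With RANKL, Actb held 3780, 4670 and 5490 CPM in control cells at day 3 and 5760, 5780 and 5980 at day 5. LysM-Cre cells held 4790, 4270 and 5070 CPM at day 3 and 6100, 5750 and 6230 at day 5. The media overlapped at day 3 and not at day 5. The log2 changes of Actb were -0.37 (SE 0.193) at day 3 and -0.73 (SE 0.194) at day 5 in control cells, and -0.45 (SE 0.193) and -0.53 (SE 0.193) in LysM-Cre cells, of which the day 3 value in control cells did not pass (adjusted p = 0.109). Actg1 in M-CSF alone was at 1030, 1180 and 1660 CPM in control cells at day 3 and 2070, 1760 and 1680 at day 5. LysM-Cre cells held 1430, 1130 and 1670 CPM at day 3 and 1480, 1600 and 1660 at day 5. Actg1 with RANKL was at 1970, 2420 and 2500 CPM in control cells at day 3 and 2710, 2760 and 2920 at day 5. LysM-Cre cells held 2620, 2010 and 2400 CPM at day 3 and 2530, 2230 and 2820 at day 5. Within each day and genotype, every RANKL library lay above every M-CSF library. Its log2 changes were 0.83 (SE 0.162) at day 3 and 0.61 (SE 0.161) at day 5 in control cells, and 0.74 (SE 0.161) and 0.68 (SE 0.161) in LysM-Cre cells (largest adjusted p 0.00355). The ratio of Actb to Actg1 CPM was 3.9 to 5.66 in the 12 libraries in M-CSF alone and 1.83 to 2.58 in the 12 with RANKL. In control cells the mean ratio fell from 4.6 ± 0.645 to 2.01 ± 0.153 (SD, n = 3) at day 3 and from 5.27 ± 0.33 to 2.09 ± 0.0351 at day 5, and in LysM-Cre cells from 4.53 ± 0.397 to 2.02 ± 0.165 and from 5.49 ± 0.162 to 2.4 ± 0.185. Each of these 4 comparisons gave a two-sided exact permutation p of 0.1, the smallest that 3 against 3 allows. The Actb calls in LysM-Cre cells were unstable: leaving out number 1 or 3 of the M-CSF libraries or any of the RANKL libraries ended the day 3 call (adjusted p up to 0.269), and leaving out number 2 or 3 of the M-CSF libraries or any of the RANKL libraries ended the day 5 call. In control cells at day 3, Actb passed without number 1 of the M-CSF libraries. The transcript of Actg1 shares 56.7% of its 50-base stretches with other genes, mainly the pseudogene Gm12715, which stood at 4.7 CPM in M-CSF alone and 8.51 CPM with RANKL at day 3 in control cells; for Actb the share was 14.2%.

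**Figure D3:**
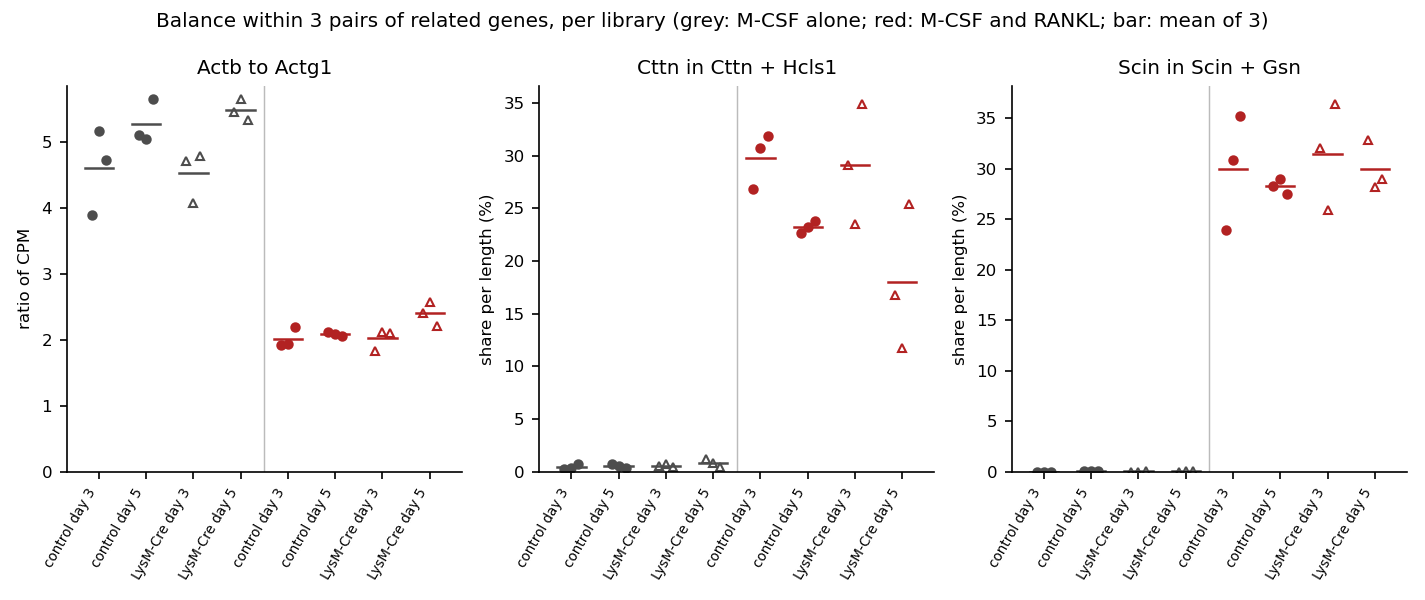
Ratio of Actb to Actg1 CPM (left), and shares per length of Cttn in Cttn plus Hcls1 (middle) and of Scin in Scin plus Gsn (right), per library; grey is M-CSF alone, red is RANKL, circles are control, triangles are LysM-Cre, and bars are means of 3. The actin ratio lies at 3.9 or more in M-CSF alone and at 2.58 or less with RANKL, and the Cttn and Scin shares lie at 1.2% or less in M-CSF alone and at 11.7% or more with RANKL.

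Of the Arp2/3 complex, which branches filaments, 3 of 6 subunits fell and Actr3 rose at both days in both genotypes. Arpc1b, Arpc3 and Arpc5 were lower in all 4 comparisons, Arpc2 in 3 of them, Actr2 was called in none by edgeR with TMM scaling over all libraries, and Actr3, an actin-related core subunit, was higher in all 4. Arpc3, at chr5:122391878-122414184, held 462, 497 and 523 CPM in control cells at day 3 and 496, 534 and 561 at day 5 in M-CSF alone. LysM-Cre cells held 399, 469 and 497 CPM at day 3 and 482, 457 and 499 at day 5. With RANKL it fell to 296, 283 and 260 CPM in control cells at day 3 and 244, 258 and 274 at day 5. LysM-Cre cells held 300, 303 and 268 CPM at day 3 and 251, 249 and 284 at day 5. The media did not overlap. The Arpc3 log2 changes were -0.82 (SE 0.0904) at day 3 and -1.04 (SE 0.0908) at day 5 in control cells, and -0.65 (SE 0.0902) and -0.87 (SE 0.0905) in LysM-Cre cells (largest adjusted p 2.68e-06). Arpc1b and Arpc5 changed less, the former by -0.27 (SE 0.0686) at day 3 and -0.35 (SE 0.0686) at day 5 in control cells, and -0.22 (SE 0.0685) and -0.27 (SE 0.0686) in LysM-Cre cells. Arpc5 changed by -0.26 (SE 0.0684) at day 3 and -0.32 (SE 0.0685) at day 5 in control cells, and -0.28 (SE 0.0684) and -0.27 (SE 0.0684) in LysM-Cre cells. Both genes lost the day 3 call in both genotypes when only the groups compared were fitted. In LysM-Cre cells Arpc1b was also lost at both days with no filter on low counts. Its day 3 call there was lost without the 4 libraries of number 3 as well. Arpc5 was lost in LysM-Cre cells at day 5 with no filter. For Arpc2 the changes were -0.24 (SE 0.11) at day 3 and -0.68 (SE 0.11) at day 5 in control cells, and -0.31 (SE 0.11) and -0.6 (SE 0.11) in LysM-Cre cells. The Arpc2 fall at day 3 in LysM-Cre cells was lost without number 1 or 3 of the M-CSF libraries or number 1 of the RANKL libraries (adjusted p up to 0.102), and in control cells it passed without number 1 of the M-CSF libraries. Arpc1b shares 18.2% of its exon bases with Pdap1 on the other strand, which was not called. Actr3 (chr1:125392905-125435727) was at 595, 592 and 680 CPM in control cells at day 3 and 877, 765 and 725 at day 5 in M-CSF alone. LysM-Cre cells held 647, 584 and 710 CPM at day 3 and 789, 798 and 784 at day 5. With RANKL it was at 941, 1020 and 1020 CPM in control cells at day 3 and 949, 998 and 982 at day 5. LysM-Cre cells held 1070, 997 and 1040 CPM at day 3 and 969, 950 and 1050 at day 5. Within each day and genotype the media did not overlap, and the gap was smaller at day 5, when the M-CSF libraries were higher. Its log2 changes were 0.67 (SE 0.0863) at day 3 and 0.31 (SE 0.086) at day 5 in control cells, and 0.68 (SE 0.0863) and 0.32 (SE 0.086) in LysM-Cre cells (largest adjusted p 0.00531), and the control call at day 5 was lost without number 3 of the M-CSF libraries (log2 0.21, adjusted p = 0.066). Actr3 shares 49.8% of its 50-base stretches with other genes, mainly the pseudogene Gm8822, at 0.94 CPM in M-CSF alone and 1.41 CPM with RANKL at day 3 in control cells.

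Among the activators of the complex, cortactin rose and its blood cell relative fell. Cttn (chr7:144435733-144471009) encodes cortactin, a Src substrate that holds branches in place. Cttn in M-CSF alone was at 1.31, 1.96 and 4.15 CPM in control cells at day 3 and 4.79, 3.2 and 2.22 at day 5. LysM-Cre cells held 2.41, 3.58 and 2.98 CPM at day 3 and 7.11, 5.8 and 2.6 at day 5. RANKL libraries held 103, 149 and 171 CPM in control cells at day 3 and 111, 116 and 130 at day 5. LysM-Cre cells held 167, 116 and 176 CPM at day 3 and 110, 69 and 148 at day 5. The lowest RANKL library, number 2 of LysM-Cre at day 5, held 69 CPM, and the highest M-CSF library 7.11 CPM. The log2 changes of Cttn were 5.81 (SE 0.416) at day 3 and 5.13 (SE 0.403) at day 5 in control cells, and 5.67 (SE 0.408) and 4.4 (SE 0.382) in LysM-Cre cells (adjusted p of 7.21e-09 or less). In the 3 LysM-Cre libraries with RANKL at day 5, Cttn was 110, 69 and 148 CPM where the stromal marker Col1a1 was 156, 106 and 10.9 CPM. The smooth muscle marker Acta2 was at 64.8, 46.6 and 5.57 CPM there. In M-CSF alone at day 5, Cttn in LysM-Cre cells was 7.11, 5.8 and 2.6 CPM beside 70.5, 73.2 and 8.74 CPM of Col1a1. In control cells it was 4.79, 3.2 and 2.22 CPM beside 65.3, 55.4 and 4.69 CPM. The part of these markers in the result was not tested. Hcls1 encodes HS1, the cortactin relative of blood cells. Hcls1 held 300, 352 and 363 CPM in control cells at day 3 and 393, 354 and 383 at day 5 in M-CSF alone. LysM-Cre cells held 287, 317 and 385 CPM at day 3 and 353, 409 and 353 at day 5. With RANKL it held 170, 202 and 220 CPM in control cells at day 3 and 227, 232 and 251 at day 5. LysM-Cre cells held 245, 227 and 198 CPM at day 3 and 329, 313 and 261 at day 5. Within each day and genotype all RANKL values lay below the M-CSF values. The Hcls1 log2 changes were -0.78 (SE 0.122) at day 3 and -0.67 (SE 0.121) at day 5 in control cells, and -0.56 (SE 0.121) and -0.3 (SE 0.121) in LysM-Cre cells, and the last was lost without number 2 of the M-CSF libraries or number 2 or 3 of the RANKL libraries (adjusted p up to 0.19). Per length, Cttn was 0.262% to 1.2% of the sum of Cttn and Hcls1 in the 12 libraries in M-CSF alone and 11.7% to 34.9% in the 12 with RANKL.

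In the WASP branch, Was fell at both days, Wipf1 rose at day 3 and Wasf2 fell at day 5. Was, the WASP gene of blood cells, had log2 changes of -0.31 (SE 0.0772) at day 3 and -0.37 (SE 0.0773) at day 5 in control cells, and -0.28 (SE 0.0771) and -0.28 (SE 0.0771) in LysM-Cre cells. In LysM-Cre cells its day 3 call was lost when only the groups compared were fitted, and without the 4 libraries of number 3. Its day 5 call there was lost with no filter on low counts. Wipf1 encodes WIP, the partner that protects WASP. Wipf1 stood at 253, 239 and 239 CPM in control cells at day 3 and 272, 277 and 254 at day 5 in M-CSF alone. LysM-Cre cells held 210, 250 and 239 CPM at day 3 and 265, 276 and 276 at day 5. RANKL values of Wipf1 were 268, 298 and 295 CPM in control cells at day 3 and 271, 269 and 270 at day 5. LysM-Cre cells held 299, 284 and 281 CPM at day 3 and 249, 233 and 271 at day 5. At day 3 all RANKL libraries lay above those in M-CSF alone, and at day 5 the media overlapped. It rose at day 3 by log2 0.23 in control and 0.31 in LysM-Cre cells (adjusted p = 0.0101 and 0.00138), the control call being lost without number 2 of the RANKL libraries. The day 5 changes of 0.01 and -0.12 did not pass. Wasf2 encodes WAVE2, the Rac-driven activator. Wasf2 read 392, 374 and 372 CPM in control cells at day 3 and 409, 411 and 422 at day 5 in M-CSF alone. LysM-Cre cells held 345, 384 and 390 CPM at day 3 and 395, 403 and 404 at day 5. The RANKL libraries read 436, 412 and 404 CPM in control cells at day 3 and 339, 347 and 359 at day 5. LysM-Cre cells held 438, 471 and 381 CPM at day 3 and 333, 348 and 337 at day 5. With RANKL the 6 day 5 libraries lay below the 6 day 3 libraries, and in each genotype below those in M-CSF alone at day 5. Wasf2 was lower at day 5 by log2 -0.25 in control and -0.24 in LysM-Cre cells (adjusted p = 0.00798 and 0.00946), and higher at day 3 in LysM-Cre cells by 0.2 (adjusted p = 0.0211), a call lost without number 1 of the M-CSF libraries or number 1 or 2 of the RANKL libraries.

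Of the proteins that cut, cap, bind or lengthen filaments, Scin and Vasp rose at both days, Gsn rose at day 3, Cfl1 fell in 3 of 4 comparisons and Pfn1 was not called by edgeR with TMM scaling over all libraries. Scin (chr12:40059769-40134228) encodes scinderin, a calcium-driven severing protein of the gelsolin family. In M-CSF alone, Scin held 0, 0 and 0 CPM in control cells at day 3 and 0.15, 0.0542 and 0.206 at day 5. LysM-Cre cells held 0, 0 and 0.0432 CPM at day 3 and 0, 0.128 and 0.0473 at day 5. Summed over each group these were 0 and 8 counts in control and 1 and 4 counts in LysM-Cre cells. With RANKL, Scin held 250, 384 and 398 CPM in control cells at day 3 and 229, 230 and 235 at day 5. LysM-Cre cells held 453, 301 and 411 CPM at day 3 and 294, 227 and 256 at day 5. The control libraries in M-CSF alone at day 3 had 0 counts, so the rise there was at least 7760-fold against 3 counts over the group (0.0443 CPM), a bound that covers counting error only. At day 5 in control cells the mean went from 0.137 ± 0.0768 to 231 ± 3.69 CPM (SD, n = 3). In LysM-Cre cells it went from 0.0144 ± 0.0249 to 388 ± 78.7 CPM at day 3 and from 0.0584 ± 0.0647 to 259 ± 33.9 CPM at day 5. Gsn encodes gelsolin itself. Gsn held 665, 654 and 653 CPM in control cells at day 3 and 664, 641 and 669 at day 5 in M-CSF alone. LysM-Cre cells held 630, 713 and 651 CPM at day 3 and 664, 699 and 619 at day 5. Its RANKL values were 839, 903 and 772 CPM in control cells at day 3 and 610, 592 and 653 at day 5. LysM-Cre cells held 1010, 905 and 758 CPM at day 3 and 632, 609 and 658 at day 5. At day 3 the RANKL libraries lay above those in M-CSF alone, and at day 5 they overlapped. Gsn rose at day 3 by log2 0.35 in control and 0.42 in LysM-Cre cells (adjusted p = 0.00231 and 0.000417), and its day 5 changes were -0.09 and -0.06 (adjusted p = 0.443 and 0.592). Per length, Scin was 0% to 0.0324% of the sum of Scin and Gsn in M-CSF alone and 23.9% to 36.4% with RANKL. For this share and for that of Cttn, each of the 4 comparisons between media gave the same two-sided exact permutation p of 0.1.

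Vasp, at chr7:19256929-19271817, encodes a protein that lengthens filaments at their growing ends. Vasp in M-CSF alone was at 135, 124 and 130 CPM in control cells at day 3 and 153, 143 and 149 at day 5. LysM-Cre cells held 65, 129 and 135 CPM at day 3 and 129, 152 and 134 at day 5. RANKL brought Vasp to 273, 275 and 279 CPM in control cells at day 3 and 201, 189 and 199 at day 5. LysM-Cre cells held 258, 244 and 268 CPM at day 3 and 178, 175 and 196 at day 5. No library with RANKL overlapped with one in M-CSF alone. Among the M-CSF libraries, number 1 of LysM-Cre at day 3 stood lowest at 65 CPM. The log2 changes were 1.09 (SE 0.161) at day 3 and 0.4 (SE 0.16) at day 5 in control cells, and 1.23 (SE 0.162) and 0.41 (SE 0.16) in LysM-Cre cells, with adjusted p of 6.22e-06 and 1.31e-06 at day 3. The day 5 calls (adjusted p = 0.0407 and 0.0381) were lost on leaving out each of the 6 control libraries in turn, or any of 5 of the 6 LysM-Cre libraries (all but number 2 in M-CSF alone), with log2 values of 0.35 to 0.44 in those fits. Cfl1, the cofilin that severs old filaments, had log2 changes of -0.25 (SE 0.0862) at day 3 and -0.29 (SE 0.0863) at day 5 in control cells, and -0.27 (SE 0.0862) and -0.17 (SE 0.0862) in LysM-Cre cells, the last of which did not pass. The Cfl1 call at day 3 was lost in control cells without numbers 2 or 3 of the M-CSF libraries or number 1 of the RANKL libraries, and in LysM-Cre cells without number 3 of the M-CSF libraries. Cfl1 shares 16.5% of its exon bases with Snx32 on the other strand, at 10.9 CPM in M-CSF alone and 5.03 CPM with RANKL at day 3 in control cells. Pfn1, the profilin that feeds monomers to growing ends, had changes of 0.3 (SE 0.141) at day 3 and -0.06 (SE 0.141) at day 5 in control cells, and 0.26 (SE 0.141) and 0.02 (SE 0.141) in LysM-Cre cells, and passed at day 3 in both genotypes without number 3 of the M-CSF libraries. In control cells at day 3 it also passed without number 1 of the RANKL libraries, with RLE size factors and by DESeq2.

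Rhoa, Rac1 and Cdc42 fell and Rhou rose. Rhou (chr8:123653929-123663884) encodes an atypical GTPase, also called Wrch1, that is found at podosomes. Rhou in M-CSF alone was at 0.513, 1.35 and 0.846 CPM in control cells at day 3 and 1.3, 1.46 and 0.979 at day 5. LysM-Cre cells held 0.805, 0.597 and 0.994 CPM at day 3 and 1.21, 0.426 and 0.614 at day 5. RANKL libraries gave 50, 65.3 and 57.3 CPM in control cells at day 3 and 35, 37.1 and 38.9 at day 5 for Rhou. LysM-Cre cells held 57.1, 46 and 51.8 CPM at day 3 and 26.6, 18.4 and 41.5 at day 5. The highest M-CSF library held 1.46 CPM and the lowest RANKL library 18.4 CPM. Its log2 changes were 5.99 (SE 0.33) at day 3 and 4.89 (SE 0.318) at day 5 in control cells, and 6.01 (SE 0.331) and 5.28 (SE 0.334) in LysM-Cre cells (adjusted p of 9.1e-11 or less). Rac1, at chr5:143503634-143528036, encodes the GTPase that Dock5 activates. Rac1 held 477, 526 and 556 CPM in control cells at day 3 and 494, 493 and 474 at day 5 in M-CSF alone. LysM-Cre cells held 548, 483 and 556 CPM at day 3 and 511, 469 and 496 at day 5. With RANKL the Rac1 values were 340, 342 and 361 CPM in control cells at day 3 and 363, 369 and 386 at day 5. LysM-Cre cells held 365, 366 and 348 CPM at day 3 and 366, 379 and 393 at day 5. Every RANKL library lay below every M-CSF library. The Rac1 log2 changes were -0.58 (SE 0.0724) at day 3 and -0.39 (SE 0.0723) at day 5 in control cells, and -0.56 (SE 0.0724) and -0.38 (SE 0.0723) in LysM-Cre cells (largest adjusted p 0.00018). Of the exon bases of Rac1, 51.4% are shared with Daglb on the other strand, which had a log2 change of -1.7, from 96.9 to 29.9 CPM at day 3 in control cells, and without the strand setting the reads of both cannot be told apart. Cdc42, which drives WASP, had log2 changes of -0.3 (SE 0.0756) at day 3 and -0.39 (SE 0.0757) at day 5 in control cells, and -0.36 (SE 0.0757) and -0.36 (SE 0.0757) in LysM-Cre cells. Those of Rhoa, which drives contraction, were -0.41 (SE 0.0768) at day 3 and -0.19 (SE 0.0767) at day 5 in control cells, and -0.36 (SE 0.0768) and -0.2 (SE 0.0767) in LysM-Cre cells. The Rhoa falls at day 5 (adjusted p = 0.0448 and 0.0327) were lost in control cells without number 2 of the M-CSF libraries or any of the RANKL libraries, and in LysM-Cre cells without number 1 or 3 of the M-CSF libraries or number 1 or 2 of the RANKL libraries.

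The scaffold and 2 of the 3 unconventional myosins rose, and Myo9b fell. Myo10 (chr15:25622525-25813673) encodes a myosin of filopodia. Myo10 in M-CSF alone held 25.5, 30.3 and 33.8 CPM in control cells at day 3 and 71.4, 59.8 and 61.9 at day 5. LysM-Cre cells held 25.8, 28.4 and 37.7 CPM at day 3 and 45, 62.7 and 59.1 at day 5. With RANKL, Myo10 held 430, 476 and 478 CPM in control cells at day 3 and 322, 327 and 322 at day 5. LysM-Cre cells held 506, 494 and 477 CPM at day 3 and 353, 324 and 323 at day 5. The media did not overlap, and the days moved apart in opposite directions: in M-CSF alone day 5 lay above day 3, and with RANKL day 5 lay below day 3. Its log2 changes were 3.95 (SE 0.144) at day 3 and 2.33 (SE 0.134) at day 5 in control cells, and 4.01 (SE 0.144) and 2.58 (SE 0.135) in LysM-Cre cells (adjusted p of 1.07e-11 or less). Myo1e encodes a membrane-bound myosin of class I. Myo1e in M-CSF alone was at 64.3, 65.6 and 81.1 CPM in control cells at day 3 and 199, 144 and 138 at day 5. LysM-Cre cells held 37, 43.5 and 101 CPM at day 3 and 85.4, 107 and 150 at day 5. Under RANKL, Myo1e was at 799, 834 and 790 CPM in control cells at day 3 and 532, 546 and 563 at day 5. LysM-Cre cells held 819, 785 and 802 CPM at day 3 and 492, 432 and 595 at day 5. Number 3 of LysM-Cre in M-CSF alone at day 3, with 101 CPM, stood well above numbers 1 and 2. The Myo1e log2 changes were 3.52 (SE 0.287) at day 3 and 1.77 (SE 0.268) at day 5 in control cells, and 3.73 (SE 0.29) and 2.15 (SE 0.271) in LysM-Cre cells (largest adjusted p 1.31e-05). Sh3pxd2a encodes TKS5, the Src substrate that scaffolds podosomes and invadopodia. Sh3pxd2a held 66, 82.6 and 105 CPM in control cells at day 3 and 142, 144 and 133 at day 5 in M-CSF alone. LysM-Cre cells held 72.4, 79.5 and 99.1 CPM at day 3 and 122, 141 and 121 at day 5. RANKL values of Sh3pxd2a were 312, 406 and 417 CPM in control cells at day 3 and 293, 279 and 292 at day 5. LysM-Cre cells held 459, 344 and 422 CPM at day 3 and 326, 246 and 305 at day 5. Again every RANKL library lay above every M-CSF library. The log2 changes of Sh3pxd2a were 2.16 (SE 0.161) at day 3 and 1.05 (SE 0.156) at day 5 in control cells, and 2.29 (SE 0.161) and 1.2 (SE 0.156) in LysM-Cre cells (largest adjusted p 9.18e-06). Myo9b had log2 changes of -0.62 (SE 0.0925) at day 3 and -0.45 (SE 0.0924) at day 5 in control cells, and -0.64 (SE 0.0925) and -0.61 (SE 0.0925) in LysM-Cre cells.

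From day 3 to day 5, more members rose than fell in M-CSF alone, and more fell than rose with RANKL. In control cells in M-CSF alone, 13 members rose and 1 fell, against 12.2% of all tested genes higher and 11.5% lower, and the member median was 0.2 where that of all genes was 0.01. The rises included Myo1e (log2 1.19), Myo10 (1.11), Sh3pxd2a (0.72), Actb (0.69), Ptk2b (0.62), Actn1 and Pfn1 (both 0.58), Actg1 (0.51) and Arpc2 (0.49), and Dock5 fell (-0.79, adjusted p = 0.000121). The 13 rises also counted Scin, which held 0 counts over the group at day 3 and 8 at day 5. That call was lost with no filter on low counts and when only the groups compared were fitted. With RANKL, 2 members rose and 9 fell, against 14.1% and 12.7%. The falls were those of Src (log2 -0.89), Dock5 (-0.69), Pxn (-0.58), Scin (-0.57), Myo10 (-0.51), Vasp (-0.49), Fermt3 (-0.45), Gsn (-0.44) and Wasf2 (-0.26), while Ptk2b (0.31) and Rhoa (0.24) passed as higher. With RLE size factors or by DESeq2 these last 2 were lost, and 0 members were higher and 11 lower, and without single libraries Ptk2b was lost in 5 and Rhoa in 4 of 6 fits. Among the falls, the Vasp call was lost on leaving out each of these 6 libraries in turn. The Scin call was lost in each of these fits but that without number 1 at day 3. With no filter on low counts, Vasp, Scin and Wasf2 were lost. In LysM-Cre cells in M-CSF alone, 7 members rose and 1 fell, against 7.17% and 7.08%: Myo1e (0.92), Myo10 (0.86), Ptk2b and Sh3pxd2a (both 0.61), Pfn1 (0.46), Actr3 (0.29) and Wipf1 (0.22) rose, and Dock5 (-0.6) fell. With RANKL in LysM-Cre cells, 2 were higher, Hcls1 (0.43) and Ptk2b (0.28), and 12 lower, against 17.6% and 15.6%. The Ptk2b call was lost on leaving out each of the 6 libraries in turn, with RLE size factors and by DESeq2. The largest of these falls were those of Src (-1.04), Dock5 and Rhou (both -0.84) and Pxn (-0.71).

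These day counts rest in part on the scaling and on single libraries. In M-CSF alone, 51.5% of all called genes were higher at day 5 in control and 50.3% in LysM-Cre cells, against 29.5% and 29% when scaled by library totals only, where 9 members rose and 5 fell in control cells and 4 rose and 1 fell in LysM-Cre cells. In M-CSF alone the control count of 14 fell to 9 without number 1 at day 3 and to 8 without number 1 at day 5. The LysM-Cre count of 8 in M-CSF alone fell to 3 and 5 without numbers 1 and 2 at day 3, to 5, 4 and 4 without numbers 1, 2 and 3 at day 5, and rose to 13 without number 3 at day 3. With RANKL the control count of 11 fell to 7 without number 2 at day 3 or without number 1 or 3 at day 5, and the LysM-Cre count of 14 fell to 8 without number 2 at day 5. Summed stromal markers were 12.9 to 119 CPM in control cells in M-CSF alone at day 5 against 7.9 to 15.3 CPM at day 3, and their part in the rises of Actb, Actg1, Actn1 and the myosins was not tested.

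The response to RANKL differed between day 5 and day 3 for several members, tested as the day 5 log2 response minus that at day 3. In control cells 12 members differed, each with a negative difference, against 14% of all tested genes in either direction, and in LysM-Cre cells 9 differed, each again negative, against 15.2%. A negative difference was not always a smaller response, as Fermt3 went from log2 -0.15 at day 3 to -0.75 at day 5 in control cells and Wasf2 from 0.2 to -0.24 in LysM-Cre cells. Of all called genes, 51.9% in control and 53.1% in LysM-Cre cells were higher, and 67.2% in both when scaled by library totals only, where 2 members were higher and 8 lower in control cells and 0 higher and 9 lower in LysM-Cre cells. The myosins and their scaffold differed in both genotypes: Myo1e by log2 -1.75 (adjusted p = 0.00286) in control and -1.58 (adjusted p = 0.00593) in LysM-Cre cells, Myo10 by -1.62 (adjusted p = 2.03e-06) in control and -1.42 (adjusted p = 1.17e-05) in LysM-Cre cells and Sh3pxd2a by -1.12 (adjusted p = 0.00134) in control and -1.09 (adjusted p = 0.00156) in LysM-Cre cells. Pxn differed by -0.76 (adjusted p = 0.000475) in control and -0.87 (adjusted p = 0.000105) in LysM-Cre cells, Fermt3 by -0.6 (adjusted p = 0.000427) in control and -0.59 (adjusted p = 0.00053) in LysM-Cre cells, Vasp by -0.68 (adjusted p = 0.0476) in control and -0.82 (adjusted p = 0.0165) in LysM-Cre cells, Gsn by -0.44 (adjusted p = 0.0246) in control and -0.49 (adjusted p = 0.0128) in LysM-Cre cells and Wasf2 by -0.39 (adjusted p = 0.0152) in control and -0.44 (adjusted p = 0.00549) in LysM-Cre cells. These 8 differed in both genotypes, and the share of all tested genes that did so was not computed. In control cells, Src (-1.19, adjusted p = 0.0173), Actn1 (-0.71, adjusted p = 0.00587) and Actr3 (-0.37, adjusted p = 0.0494) also differed, and in LysM-Cre cells Wipf1 did (-0.42, adjusted p = 0.00873). Scin differed in control cells by a fitted -5.25, a value set by the group at 0 counts; its RANKL levels were 344 ± 81.3 CPM at day 3 and 231 ± 3.69 CPM at day 5. Whether these differences between days themselves differ between genotypes was not tested. For Myo1e and Myo10 both media moved, as the M-CSF values rose and the RANKL values were lower at day 5. The lower RANKL level of Myo1e at day 5 was not called in either genotype by edgeR with TMM scaling over all libraries. Src stayed within 1.6 to 3.34 CPM in M-CSF alone. The Actr3 call was lost in 12 of 19 settings. The control count of 12 fell to 7 without number 2 in M-CSF alone at day 3, when Src was also lost (log2 -1.01, adjusted p = 0.058), and to 6, again without Src, with no filter on low counts, and the Vasp call in control cells was lost on leaving out any of the 12 libraries in turn.

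**Figure D4:**
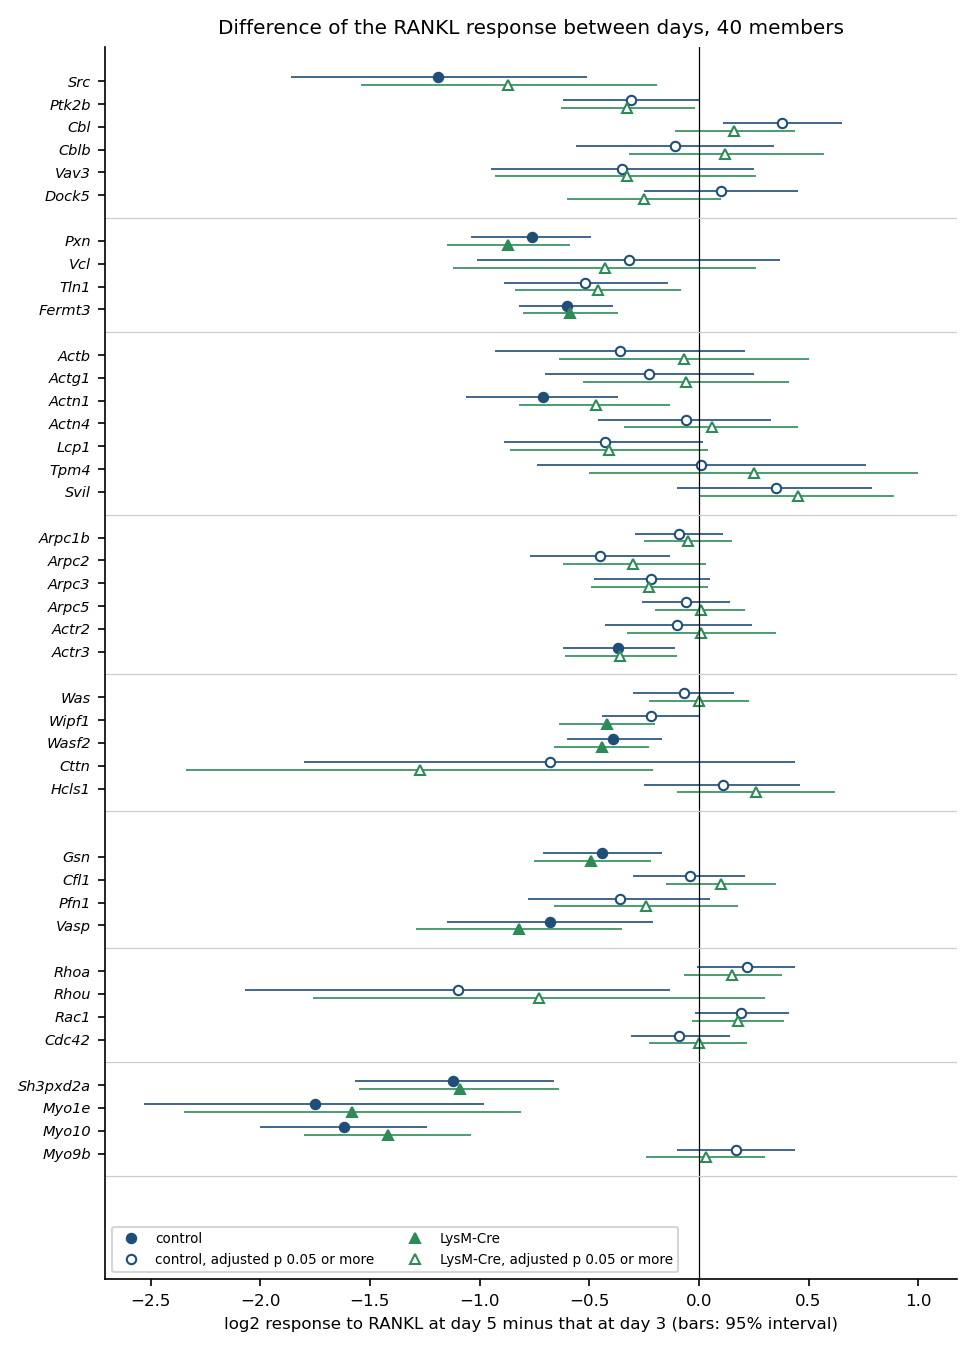
Log2 response to RANKL at day 5 minus that at day 3 for 40 members (Scin is left out because its fitted value rests on a group at 0 counts), in control (circles) and LysM-Cre cells (triangles), with 95% intervals; open symbols have an adjusted p of 0.05 or more. Myo1e, Myo10 and Sh3pxd2a lie at -1.09 or below in both genotypes, and no filled symbol lies above 0.

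Between genotypes, 0 members differed in M-CSF alone or with RANKL at either day, and 0% of all tested genes were called by edgeR in each of these 4 comparisons. The genotype difference of the RANKL response likewise gave 0 members and 0% of all genes at day 3 and at day 5. At an unadjusted p under 0.05 there were 1 and 2 of the 41 members in M-CSF alone at days 3 and 5 (2.44% and 4.88%, against 3.53% and 6.31% of all tested genes). With RANKL there were 0 and 1 (0% and 2.44%, against 1.72% and 3.04%), and for the difference of responses 0 and 2 (0% and 4.88%, against 1.61% and 3.2%). DESeq2 called 0 members in all 6, and 17 of all genes in M-CSF alone at day 5. The fitted differences, Scin aside, ran from -0.24 to 0.25 in M-CSF alone at day 3, from -0.75 to 0.6 at day 5, from -0.16 to 0.18 with RANKL at day 3 and from -0.35 to 0.34 at day 5. For Src with RANKL, the 95% interval of LysM-Cre over control was -0.34 to 0.43 at day 3 and -0.49 to 0.29 at day 5, and for Dock5 -0.16 to 0.33 and -0.31 to 0.17.

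Dock5 was the member with the smallest genotype p. In M-CSF alone its LysM-Cre libraries stood at 53, 50.2 and 49 CPM against 38.3, 43.3 and 46.2 CPM at day 3, and at 35.8, 39.1 and 25.9 CPM against 26.1, 26.8 and 21.1 CPM at day 5. The groups did not overlap at day 3 and did at day 5, through number 3. The log2 difference was 0.25 (SE 0.12, adjusted p = 1) at day 3 and 0.44 (SE 0.122, adjusted p = 0.588) at day 5. Without the 4 libraries of LysM-Cre number 3, the day 5 difference was 0.6 (adjusted p = 0.0105), and Myo1e was lower in LysM-Cre cells by log2 -0.81 at day 3 and -0.74 at day 5 (adjusted p = 0.0303 and 0.0208), against -0.22 and -0.49 with all libraries. Leaving out number 3 of LysM-Cre in M-CSF alone at day 5 by itself also brought Dock5 past the threshold (log2 0.6). Hcls1 with RANKL at day 5 stood at 329, 313 and 261 CPM in LysM-Cre and 227, 232 and 251 CPM in control cells, a log2 difference of 0.34 (SE 0.121, unadjusted p = 0.0101, adjusted p = 1) without overlap. The 3 LysM-Cre libraries of that group also held 156, 106 and 10.9 CPM of Col1a1, against 32.1, 38.3 and 12.9 CPM in control cells, and the part of this in Hcls1 was not tested.

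**Figure D5:**
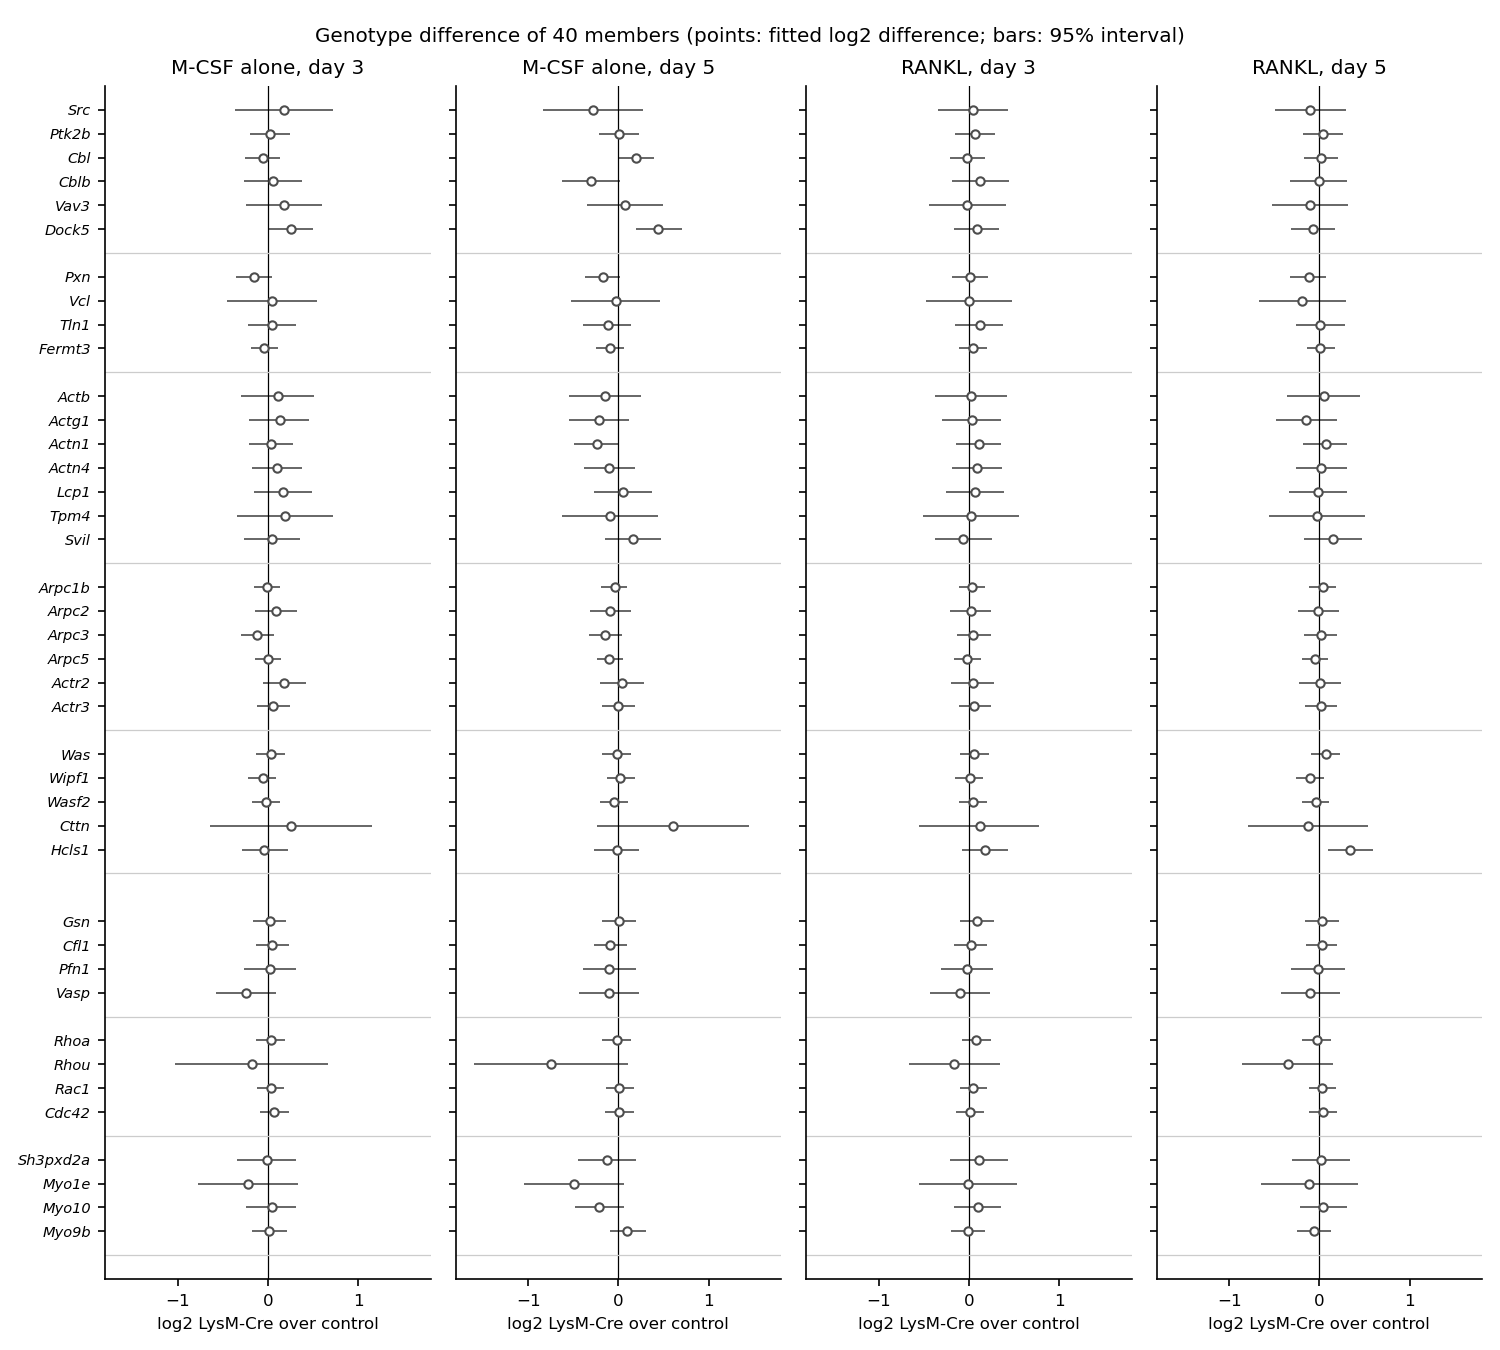
Fitted log2 difference of LysM-Cre over control for 40 members (Scin left out for its 0 counts) in each medium and day, with 95% intervals; no difference passed an adjusted p of 0.05. The widest intervals belong to Cttn and Rhou in M-CSF alone, where neither passed 7.11 CPM, and the points with RANKL lie between -0.35 and 0.34.

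Related genes outside the members were taken in lists, to be read against the 29.5% of all tested genes called higher and 29.7% called lower. At day 3 with RANKL in control cells, the crosslinkers, tropomyosins and membrane linkers had 7 of 15 higher and 2 lower, with Tpm1 up by log2 2.38 from 60.4 to 314 CPM. Conventional and other myosins had 2 of 13 higher and 7 lower, and the class I myosin gene Myo1d rose by 9.01 from 1.44 to 748 CPM. Formins and Ena/VASP proteins had 6 of 12 higher and 6 lower, among them Inf2 (2.13) and Diaph2 (-2.03). The adhesion and adaptor list had 7 of 19 higher and 7 lower: Itgav, the alpha chain of the vitronectin receptor, rose by 3.64 from 97.4 to 1220 CPM, and Bcar1, the Src substrate p130Cas, by 6.47 from 0.285 to 25.3 CPM. The WAVE complex and other Arp2/3 subunits had 4 of 13 higher and 3 lower, led by Nckap1 (4.28, from 1.29 to 25.2 CPM). Capping, severing and monomer-binding genes had 6 of 19 higher and 7 lower, with Eps8 (-3.15), Twf1 (-1.01) and Tmsb4x (-1.45) lower. Other Src family kinases, tyrosine phosphatases and related genes had 6 of 13 higher and 5 lower. Ptpn12 (1.95) and Pstpip1 (2.3), the gene of a phosphatase-interacting protein, were higher and Fyn (-2.13) was lower. Of the invadopodium scaffold and protease list, 2 of 9 were higher and 5 lower: Mmp14, a membrane-bound protease, rose by 6.76 from 8.54 to 929 CPM, and Adam15 (-2.46) and Sh3pxd2b (-0.66), the gene of TKS4, fell. The median changes of these lists ran from -0.6 to 0.45, and that of all tested genes was -0.03.

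Of these related genes, only some that rose at day 3 are followed here. Those that fell, and the counts of the lists at day 5, are left out, so no direction of the lists can be read from them. At day 5 in control cells Mmp14 was higher by log2 6.3, Myo1d by 8.79, Itgav by 2.38, Bcar1 by 5.02 and Nckap1 by 3.48. In LysM-Cre cells at day 3 the same genes rose by 6.85, 9.94, 3.6, 8.98 and 3.61, and at day 5 by 6.77, 8.35, 2.33, 5.16 and 2.56.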

How the data were processed

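RNA-seq of 24 libraries, 3 in each of 8 groups, was analysed from the gene-level read counts that the authors deposited, whole and not normalized; every value column matched 1 library. Per the submitters' processing notes, STAR and DESeq2 were used with GRCm39, with no versions. The deposited gene positions match GRCm38 and are printed as such, and whether counting used strand is not given. Counts were tested with edgeR 4.0.16 (R 4.3.3), a quasi-likelihood fit over all 24 libraries with a term per group, TMM scaling and filterByExpr (15035 of 54532 rows kept). Benjamini-Hochberg adjusted p-values over all kept genes were called under 0.05, and SEs are the log2 change over the root of F. Intervals are 95%. CPM uses TMM-scaled totals, and RPKM divides by the deposited gene length. Counts were simulated for RANKL against M-CSF alone at day 3 in control cells, on 13926 genes. Of changes of 1 and 2 on the log2 scale, 78% and 96% were recovered, with 5.43% false among the calls. The simulation changed 100 genes per size, all above 1 CPM in M-CSF alone, and gave other genes the same mean in every group. In the data 8888 genes were called in this comparison, so these rates need not hold there. Every member is named, and values in every library are given for members that the results turn on; of other lists, the 3 genes with the smallest p at day 3 in control cells could be named, with up to 3 printed. The members, lists and tests were chosen with earlier results of these data known. Alternatives were other scaling (library totals, DESeq2 1.42.0 size factors and test), no filter, only the groups compared, the library number as a block, and leaving out each library or all 4 of LysM-Cre number 3. Floors and intervals cover counting or fit error only. 1 list of related genes is not reported here.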

Additional observations from a re-analysis of the deposited data

Results flagged for a closer look

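The response to RANKL differed between day 5 and day 3, by a test of the difference of the log2 responses (edgeR, adjusted p under 0.05), for 12 members in control and 9 in LysM-Cre cells, each with a negative difference of day 5 minus day 3. The scaffold and myosins differed by -1.12 (Sh3pxd2a), -1.75 (Myo1e) and -1.62 (Myo10) in control cells and by -1.09, -1.58 and -1.42 in LysM-Cre cells. The adhesion genes Pxn and Fermt3 differed by -0.76 and -0.6 in control and by -0.87 and -0.59 in LysM-Cre cells. Vasp, Gsn and Wasf2 differed by -0.68, -0.44 and -0.39 in control and by -0.82, -0.49 and -0.44 in LysM-Cre cells. In control cells Src (-1.19), Actn1 (-0.71) and Actr3 (-0.37) also differed. Actr3 lost this call in 12 of 19 settings, and Src lost it with no filter on low counts and without number 2 of the control libraries in M-CSF alone at day 3. Scin in control cells differed by -5.25, a fitted value against a group with 0 counts. In LysM-Cre cells Wipf1 differed by -0.42. Whether the genotypes differ in these differences was not tested.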

How the results depend on the processing

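Scaling by library totals only moved the median log2 change of all genes at day 3 to -0.1 in control and -0.11 in LysM-Cre cells, from -0.03 and -0.02. No member result called by edgeR with TMM scaling over all libraries reversed its direction under any alternative run. Changes of sign among results not called there were not tracked in full. The RANKL calls among members numbered 32, 34, 35 and 33 (day 3 and day 5 in control, then in LysM-Cre cells), and 31 to 35, 32 to 33, 32 to 35 and 29 to 31 without single libraries. With only the groups compared they numbered 27, 35, 27 and 33, and with no filter 31, 31, 32 and 26. The fits of only the groups compared lost, at day 3, Vav3, Arpc1b, Arpc5, Wipf1 and Cfl1 in control cells. In LysM-Cre cells they lost Actb, Arpc1b, Arpc2, Arpc5, Was, Wipf1, Wasf2 and Cfl1 at day 3. Without single libraries the day counts moved more, to 8 to 19 and 7 to 9 in control cells (M-CSF alone, RANKL) and 3 to 13 and 8 to 15 in LysM-Cre cells. The LysM-Cre count in M-CSF alone, 8, was 5 with library totals only, 5 with no filter and 3 with only the groups compared, where the control count was 7. The day difference of the response, 12 members in control cells, was 6 with no filter and 7 to 14 without single libraries; in LysM-Cre cells, 9, it was 8 to 13, and 14 by DESeq2. Actn1, Fermt3, Myo10, Myo1e, Pxn and Sh3pxd2a kept the control call in all 19 settings, Actr3 lost it in 12 and Vasp in 14. Between genotypes, 0 members were called, but 1 (day 3) and 2 (day 5) in M-CSF alone without all 4 libraries of LysM-Cre number 3 (of 34 and 112 calls among all genes), and 0 to 1 at day 5 without single libraries. The cause was not tested. The labels do not tie library numbers across groups, and not every same-numbered pair correlated above 0.1. As a hint from the data, 11 of 18 such pairs did within LysM-Cre (4 of 36 with different numbers) and 4 of 18 within control cells (0 of 36). Across genotypes 11 of 48 did (10 of 96). Within LysM-Cre, only number 3 held 542 to 847 Y-linked counts, in both media and at both days, so that number does tie its groups together. The fit over all 24 libraries had no term for the number. With the number as a replicate block, 33, 33, 35 and 33 members were called for RANKL, 13, 13, 8 and 13 for day (control M-CSF and RANKL, then LysM-Cre), 13 and 10 for the day difference and 0 between genotypes. This lost Rhoa (day 5, control), Arpc5 and Wipf1 (day, M-CSF), Ptk2b and Wipf1 (day, RANKL, LysM-Cre) and Actr3 (day difference), and gained Pfn1 (day 3, control), Rhou, Myo1e, Arpc2, Tln1 and Actn1. Depth limits Scin, Rhou, Src and Cttn in M-CSF alone, where 1 read is worth 0.0286 to 0.0542 CPM.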
